A study of Mus musculus with 22 samples.

Results

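Liver RNA was examined for 9 genes that bind steroid hormones or interconvert them: the receptors Esr1 and Nr3c1 and the enzymes Hsd11b1, Srd5a1, Hsd17b2, Akr1c6, Hsd3b5, Hsd3b2 and Cyp17a1. They were chosen by name, by matching the Ensembl identifiers of a deposited gene table to mouse gene symbols, and are 9 of its 53392 genes. All 9 passed the filter on low counts that left 15928 genes for testing. The livers came from 22 female C57BL/6 mice, with 1 library per mouse, in 4 groups. Of 11 conventional mice, 6 were non-pregnant and 5 pregnant, and the 11 germ-free mice divided likewise into 6 and 5. Conventional mice carry an ordinary gut microbiota, whereas germ-free mice are raised without microorganisms. Every group received the same autoclaved diet, water and bedding. Pregnant mice were taken at gestation day 15. That day was counted from a single night of mating in conventional mice but was assumed in germ-free mice, whose matings lasted 72 h, so gestational age was less certain in the latter. Age labels, which carry no unit, lay between 70 and 77 for conventional mice but between 91 and 121 for germ-free ones, so age and microbiota status cannot be told apart. According to its title, the study asked how the microbiome bears on genes of drug processing in the pregnant liver.

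The liver is both a target of steroid hormones and the main site of their breakdown. Steroids cross the membrane and bind receptors that act as transcription factors, and how much active hormone reaches a receptor depends on enzymes in the same cell. Some of these enzymes activate a steroid (Hsd11b1 reduces inert 11-dehydrocorticosterone to corticosterone), and others inactivate it (Hsd17b2 oxidises oestradiol and testosterone). Srd5a1 reduces the ring double bond of several hormones. Hsd3b and Cyp17a1 enzymes are best known from hormone synthesis in the adrenal gland and gonads. During pregnancy circulating oestrogens, progesterone and glucocorticoids are high, and the plasma carrier of glucocorticoids is made in the liver.

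Total estimated counts ran from 18064491 to 30036912 per library, and 5.9% to 31.99% of them came from mitochondrially encoded genes. Hepatocyte markers (Alb, Apoa1, Ttr, Apob and Cps1) were abundant in every library. In counts per 1000000 of the library's effective size (CPM), they summed to between 48597 and 82758 in non-pregnant and between 64797 and 228210 in pregnant livers, a sum that Alb dominates. Of these 5 markers 1 rose (Alb) and 1 fell in conventional pregnancy, and 3 rose (Alb, Apoa1 and Apob) and 1 fell in germ-free pregnancy. At an edgeR adjusted p under 0.05, 5.49% and 7.15% of all genes rose in these comparisons, and 3.52% and 3.6% fell. The marker that fell in both was Ttr, with means of 3852 and 1400.4 CPM in conventional and 3654 and 1134 CPM in germ-free livers without and with pregnancy. Markers of adrenal gland or gonad, tissues that express several of these enzymes strongly, summed to between 0.604 and 4.18 CPM over 7 genes, and Cyp11b1 had 1 count in all libraries together. Placental markers stayed at or under 1.47 CPM except in germ-free non-pregnant replicate 2, with 11.1 CPM. Conventional pregnant replicate 2 stood apart from its group: it had the highest sums of Kupffer cell markers (1163 CPM over 7 genes, against a group median of 385), neutrophil markers (22.7 CPM against 1.20 over 5 genes) and lymphocyte markers (14.4 CPM against 4.50 over 6 genes). The part of these cells, and of the hepatocyte markers, in the results was not tested, and calls named below that change without this library are given both ways. In bulk tissue, fewer cells of a type and less RNA per cell cannot be told apart.

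Several of these genes belong to families of related copies, some of them near-identical, which limits how surely reads can be assigned to one gene. The 3-beta hydroxysteroid dehydrogenases show this best. The first 90 coding bases of Hsd3b5, Hsd3b2 and the neighbouring Hsd3b3 (GENCODE M21, GRCm38) are shown 5′ to 3′, with capitals where Hsd3b2 or Hsd3b3 differs from Hsd3b5, because values of these genes depend on such differences.
Hsd3b5: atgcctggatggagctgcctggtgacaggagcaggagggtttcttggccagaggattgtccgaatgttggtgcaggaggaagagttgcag
Hsd3b2: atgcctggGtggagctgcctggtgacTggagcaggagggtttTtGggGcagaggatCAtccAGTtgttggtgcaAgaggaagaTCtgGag
Hsd3b3: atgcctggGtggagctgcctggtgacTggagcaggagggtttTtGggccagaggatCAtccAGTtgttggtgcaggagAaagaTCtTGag
Each of the latter genes differed from Hsd3b5 at 14 of these bases, and largely at the same ones. Over the whole coding sequence (1119 bases without the stop codon) Hsd3b2 was 79.9% identical to Hsd3b5 and 95.1% identical to Hsd3b3. Of all stretches of 31 bases in the annotated transcripts, 34.1% of those of Hsd3b5 and 37.6% of those of Hsd3b2 also occurred in another gene. The corresponding share was 15.7% for Srd5a1 and 5.53% for Akr1c6, at most 1.27% for Esr1, Nr3c1 and Hsd17b2, and 0 for Hsd11b1 and Cyp17a1. Hsd3b5 shared the most with the gene model Gm10681 (25.6% of its stretches), and Hsd3b2 with Hsd3b3 (14.7%). The counts of Hsd3b5 and Hsd3b2 are therefore less certain, and those of Hsd11b1 and Cyp17a1 the most specific.

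In germ-free mice, pregnancy raised 2 of the 9 genes, Hsd11b1 and Cyp17a1, while the others did not pass the test. Mean Hsd11b1 was 524 ± 75.6 CPM without pregnancy (SD, n = 6) and 1042 ± 82.9 CPM with it (SD, n = 5). Mean Cyp17a1 was 70.2 ± 25.4 CPM and 216 ± 56.7 CPM in the same groups. The 2 calls stand against a background of 10.8% of all genes called in this comparison at an edgeR adjusted p under 0.05, and 7.15% called higher. In conventional mice, pregnancy changed 0 of the 9 past this threshold, with 9.02% of all genes called. At an unadjusted p under 0.05, 2 of the 9 were found in conventional and 3 in germ-free pregnancy, against 22% and 24.1% of all genes. Without conventional pregnant replicate 2, the same 2 genes, Hsd11b1 and Cyp17a1, were called in conventional pregnancy as well, with 6.47% of all genes called in that fit. That library had the lowest value of its group for both genes, so leaving it out widens both differences by construction. Microbiota status changed 0 of the 9, whether in non-pregnant mice (0.157% of all genes called, 0.0879% higher and 0.0691% lower) or in pregnant mice (0.132% called, 0.0816% higher and 0.0502% lower). With few members and these background shares, the counts are not a result about the set. The comparisons share groups of mice, so their values are given side by side below.

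**Figure D1:**
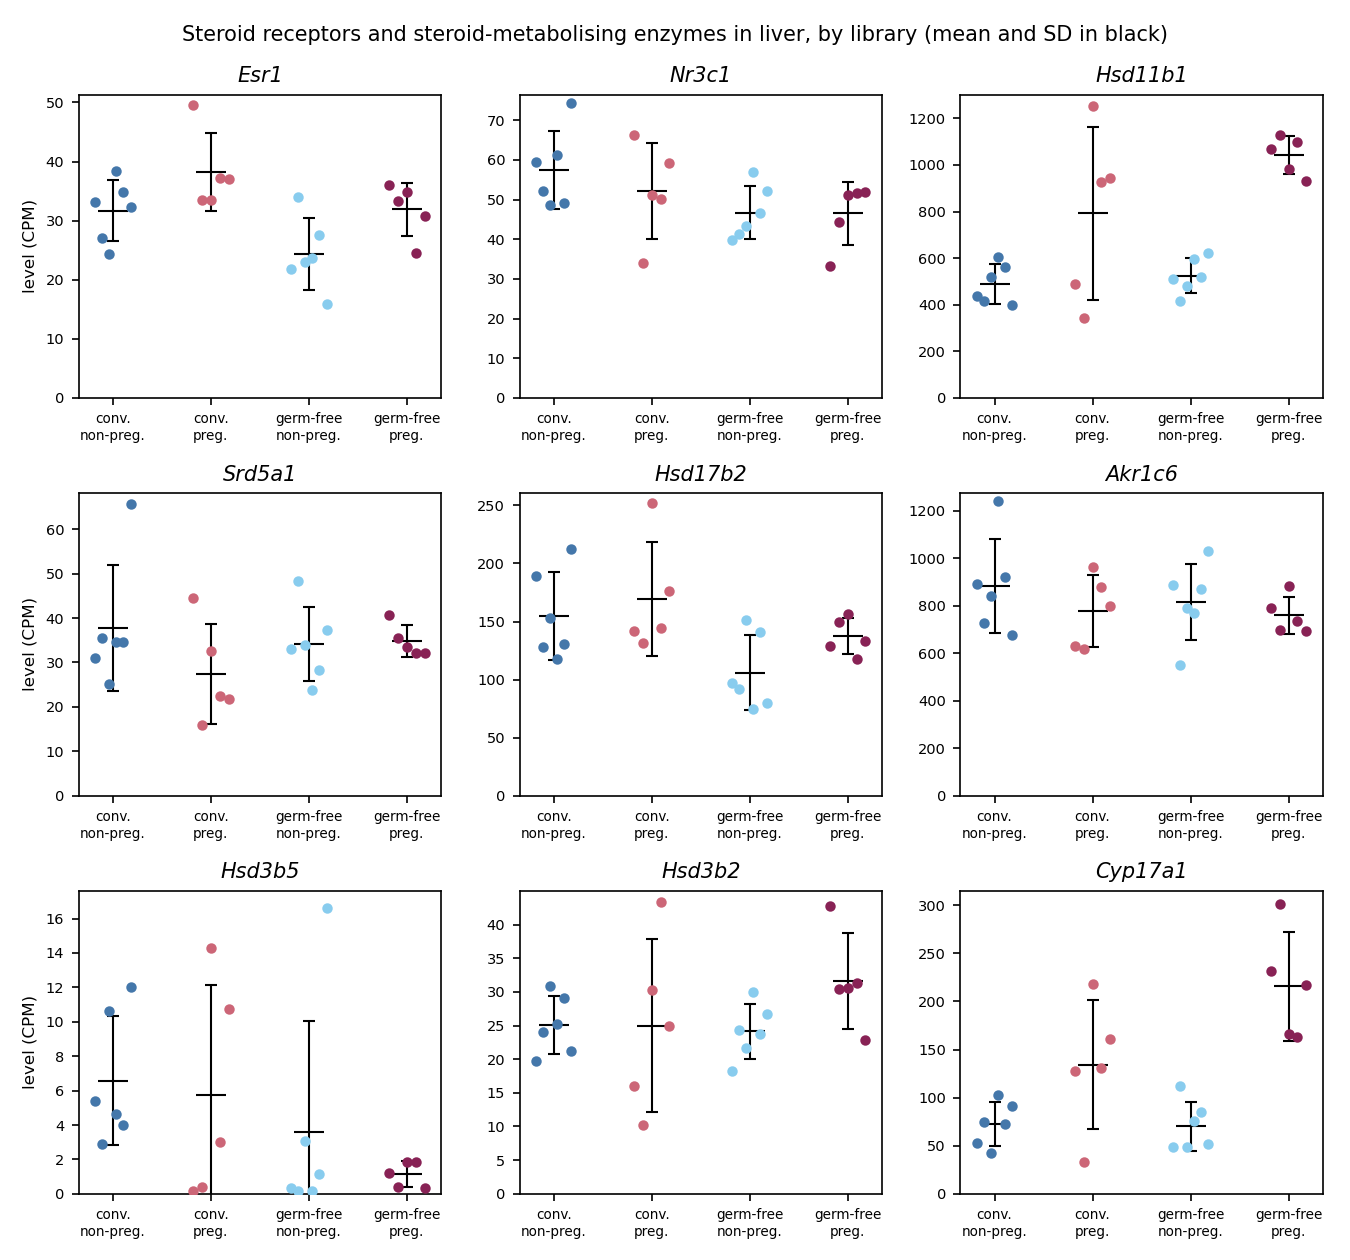
Level of each of the 9 genes in CPM (linear axes from 0) in 22 liver libraries by group, 1 point per mouse, with the group mean and SD in black (SD bars that pass below 0 end at the axis). Hsd11b1 and Cyp17a1 stand higher in all 5 germ-free pregnant libraries than in any non-pregnant library, and conventional pregnant libraries spread widely for both.

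**Figure D2:**
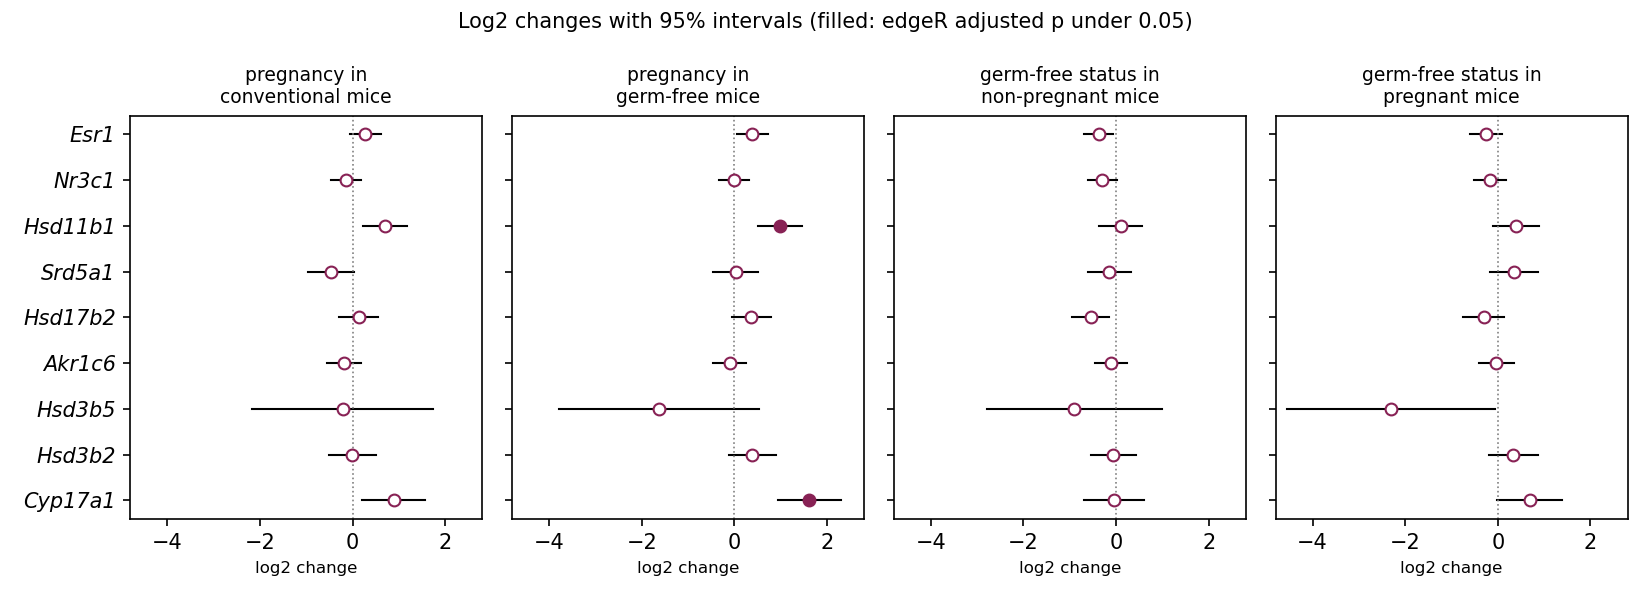
Fitted log2 change of each gene (circle) with its 95% interval (line) in 4 comparisons, filled where the edgeR adjusted p was under 0.05. Filled circles occur for Hsd11b1 and Cyp17a1 in germ-free pregnancy, and Hsd3b5 has the widest intervals.

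Esr1 encodes oestrogen receptor alpha, the main oestrogen receptor of hepatocytes, and lies on the plus strand at chr10:4611593-5005614 of GRCm38. Conventional non-pregnant libraries ran from 24.3 to 38.5 CPM around a median of 32.8, and the pregnant ones stood at 33.5, 33.6, 37.1, 37.2 and 49.6 CPM. Germ-free non-pregnant libraries ran from 15.9 to 34.1 CPM with a median of 23.4, and the pregnant ones at 24.6, 30.8, 33.3, 34.9 and 36.0 CPM. The groups overlapped in each comparison, with the upper values of each non-pregnant group lying among the pregnant ones. The log2 change with pregnancy was 0.27 ± 0.16 (SE; 95% interval -0.06 to 0.60; edgeR adjusted p = 0.352) in conventional and 0.39 ± 0.16 (0.05 to 0.72; edgeR adjusted p = 0.136) in germ-free mice. Without germ-free non-pregnant replicate 2, the highest of its group, the germ-free value was 0.51 (edgeR adjusted p = 0.0385). Removing the highest value of the lower group widens the difference by construction, so that fit is not a further test of a rise.

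Nr3c1, on chromosome 18, encodes the glucocorticoid receptor, which corticosterone activates in rodents. Conventional non-pregnant libraries ran from 48.5 to 74.3 CPM with a median of 55.9, and the pregnant ones stood at 33.97, 50.2, 51.1, 59.3 and 66.3 CPM. Germ-free non-pregnant libraries ran from 39.7 to 57.0 CPM with a median of 44.9, and the pregnant ones at 33.3, 44.4, 51.1, 51.7 and 51.9 CPM. Pregnant values lay on both sides of the non-pregnant medians, and the lowest conventional value was that of pregnant replicate 2. The log2 change was -0.14 ± 0.16 (95% interval -0.47 to 0.19; edgeR adjusted p = 0.686) in conventional and -0.01 ± 0.16 (-0.34 to 0.33; edgeR adjusted p = 0.988) in germ-free mice.

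Of 10 receptor genes listed, 7 had enough counts to test. Only Esrra, an orphan receptor related to the oestrogen receptors, passed the test: it fell in conventional pregnancy, from 39.0 ± 3.63 to 29.5 ± 4.58 CPM, -0.40 ± 0.12 on the log2 scale (edgeR adjusted p = 0.0395), but this call was lost in 6 of 11 fits with 1 library removed, among them the one without conventional pregnant replicate 2 (-0.33 ± 0.12, edgeR adjusted p = 0.123). In germ-free pregnancy its value was -0.30 ± 0.12 (edgeR adjusted p = 0.131). The mineralocorticoid receptor Nr3c2 stood between 9.81 and 11.7 CPM as group means. Esr2 and the progesterone receptor Pgr had at most 32 and 12 counts over all libraries of a group, so the liver had close to no transcript of either. The median log2 change of the 7 tested receptors was -0.14 in conventional and 0.09 in germ-free pregnancy, beside 0.04 and -0.02 for all genes. For this and the following gene lists, 5.49% of all genes were called higher and 3.52% lower in conventional pregnancy, and 7.15% higher and 3.6% lower in germ-free pregnancy. The lists were chosen with earlier results of these data known, so their counts are descriptions and not tests of the lists. Among 12 chaperones and coregulators of these receptors, which hold them ready for hormone or link them to transcription, 1 rose in each pregnancy comparison (Fkbp5, described with the glucocorticoid targets) and 0 fell, with medians of 0.11 and 0.01.

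Hsd11b1 encodes 11-beta hydroxysteroid dehydrogenase type 1, which regenerates active glucocorticoid inside hepatocytes. The gene lies on the minus strand at chr1:193221634-193264075. The 250 bases upstream of its RefSeq start (chr1:193242361-193242610 of GRCm38.p6, minus strand, within the longer GENCODE gene model) are printed 5′ to 3′ because this was 1 of the 2 genes that rose and the only one of them with a window in the promoter table.
Hsd11b1 upstream: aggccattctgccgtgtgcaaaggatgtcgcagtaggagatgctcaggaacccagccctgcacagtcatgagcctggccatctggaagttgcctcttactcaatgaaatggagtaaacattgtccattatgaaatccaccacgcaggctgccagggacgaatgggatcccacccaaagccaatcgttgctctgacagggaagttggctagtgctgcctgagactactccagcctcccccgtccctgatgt
No capitals appear because none of the 8 motifs searched on both strands was present in these letters. They were the glucocorticoid response element (AGAACA and TGTTCT with 3 bases of any kind between them) and its single arm AGAACA, the oestrogen response element (GGTCA and TGACC spaced likewise) and the single arm AGGTCA, the STAT5 site TTCNNNGAA and its narrower form TTCNNAGAA (which overlaps it, as the arms overlap their full elements), the HNF4 site CAAAGTCCA and the TATA box TATAAA. Among 32851 RefSeq windows of this length, 16.1% held AGAACA, 14.0% held AGGTCA, 7.02% held TTCNNNGAA, 4.43% held TTCNNAGAA, 0.384% held CAAAGTCCA and 12.4% held TATAAA. The full glucocorticoid and oestrogen elements occurred in 0.00913% and 0.0639%. Across the 7 windows of the 6 members matched, AGAACA occurred upstream of Hsd3b2, TTCTAGGAA upstream of 1 start of Esr1, and TATAAA upstream of Akr1c6. Such matches describe letters only.

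Hsd11b1 was the second most abundant of the 9 per kb of exon. In germ-free non-pregnant mice the libraries stood at 414 to 620.2 CPM with a median of 515, and in germ-free pregnant mice at 932, 982, 1070, 1098 and 1129.9 CPM. All 5 pregnant livers thus lay well above all 6 non-pregnant ones, with a narrow spread in both groups. The log2 change was 0.99 ± 0.23 (95% interval 0.52 to 1.47; edgeR adjusted p = 0.00569), a fold of 1.99, and the exact two-sided permutation p of 0.00216 was the smallest that 462 splits can give. Leaving out each library in turn gave 0.93 to 1.05 (edgeR adjusted p at most 0.0152).

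Conventional mice showed a split picture for Hsd11b1. Non-pregnant libraries stood at 396 to 607 CPM with a median of 478, and the pregnant ones at 342, 490.3, 927, 944 and 1255 CPM. Pregnant replicates 3, 4 and 5 were near or above the germ-free pregnant values, whereas replicate 1 lay within the non-pregnant range and replicate 2 below it. Pregnant replicates 1 and 2 carried the age label 70 and replicates 3, 4 and 5 the label 77, so this split cannot be told apart from age label. The log2 change of 0.69 ± 0.23 (95% interval 0.22 to 1.17) missed the threshold in edgeR (adjusted p = 0.0616; exact permutation p = 0.128) and passed it in DESeq2 (adjusted p = 0.0317). Without replicate 2 it was 0.88 ± 0.19 (edgeR adjusted p = 0.00491), and without replicate 1 it was 0.82 (edgeR adjusted p = 0.0235). Both libraries lay at the low end of the higher group, so removing either widens the difference by construction. Those fits are not further tests of a rise. The difference between the 2 pregnancy changes was 0.30 ± 0.33 (95% interval -0.38 to 0.98; edgeR adjusted p = 0.923), so a difference between microbiota states was not shown.

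H6pd, which supplies the NADPH that drives Hsd11b1 as a reductase in the endoplasmic reticulum, rose in both pregnancy comparisons. Germ-free non-pregnant libraries ran from 113 to 175 CPM with a median of 151, and the pregnant ones stood at 244, 341, 381, 423 and 527 CPM, with no overlap. The log2 change was 1.40 ± 0.23 (edgeR adjusted p = 0.000217). In conventional mice it was 0.94 ± 0.23 (edgeR adjusted p = 0.0107): non-pregnant libraries ran from 108 to 304 CPM with a median of 149.9, and the pregnant ones stood at 277, 297, 303, 311 and 427 CPM. There 1 non-pregnant library reached into the pregnant range, and conventional pregnant replicate 2 was not apart from its group. Hsd11b2, which runs the opposite reaction in kidney, had at most 11 counts over a whole group. Of the 2 tested genes of this system, 1 rose in conventional pregnancy and 2 rose in germ-free pregnancy, where 5.49% and 7.15% of all genes were called higher. Without conventional pregnant replicate 2, the lowest of its group for Hsd11b1, both were called higher in conventional pregnancy too.

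Of the plasma carriers, Serpina6 and Alb were also higher in pregnancy. Serpina6 encodes corticosteroid-binding globulin, the plasma protein that carries glucocorticoids and progesterone. Its level was 432 ± 96.7 CPM in conventional non-pregnant and 429.9 ± 133 CPM in germ-free non-pregnant livers. Pregnant conventional livers stood at 2633, 8104, 19122, 19728 and 26642 CPM, and germ-free pregnant ones at 17988, 18048, 23283, 24462 and 27293 CPM. Every pregnant library was above every non-pregnant one, and the 2 lowest were conventional pregnant replicates 1 and 2, the same 2 that were low for Hsd11b1. The log2 changes were 5.14 ± 0.42 (edgeR adjusted p = 1.84e-08) and 5.69 ± 0.43 (edgeR adjusted p = 6.08e-09). Alb, the low-affinity carrier albumin, rose by 1.25 ± 0.28 and 1.13 ± 0.28 (edgeR adjusted p = 0.00535 and 0.00853). Gc, which carries vitamin D, did not pass the test (0.40 ± 0.20 and 0.49 ± 0.20), and Shbg had at most 3 counts in a group. Thus 2 of 3 tested carriers rose in each comparison, against 5.49% and 7.15% of all genes called higher. With so short a list, chosen with earlier results of these data known, this is not a result about carriers as a set.

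Glucocorticoid receptor target genes gave mixed directions. Of 13 tested, 4 rose and 1 fell in conventional pregnancy, and 2 rose and 1 fell in germ-free pregnancy, with medians of 0.30 and 0.03. Of all genes, 5.49% and 7.15% were called higher and 3.52% and 3.6% lower. Fkbp5, a co-chaperone that restrains the receptor, rose in both: by 1.14 ± 0.26 in conventional mice (edgeR adjusted p = 0.00582), where non-pregnant libraries ran from 39.2 to 62.6 CPM and the pregnant ones stood at 69.3, 71.4, 119, 131 and 137 CPM. In germ-free mice the change was 0.89 ± 0.26 (edgeR adjusted p = 0.0249), with pregnant libraries at 96.0 to 107 CPM and non-pregnant ones at 23.3 to 105 CPM, a call lost in 3 of 11 fits that left out 1 library. Tat, a tyrosine-degrading enzyme, rose by 0.81 ± 0.21 (edgeR adjusted p = 0.0154) and 0.68 ± 0.21 (edgeR adjusted p = 0.0346), the latter call lost in 8 of 11 such fits. Tat in conventional pregnant replicate 2, at 565 CPM, lay within the non-pregnant range.

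Other targets fell. Tsc22d3, an anti-inflammatory leucine zipper protein, fell in germ-free pregnancy from 80.5 to 119 CPM (median 100.3) to 43.6, 45.9, 46.1, 63.1 and 71.6 CPM, without overlap, which is -0.92 ± 0.21 on the log2 scale (edgeR adjusted p = 0.00423). In conventional mice its value was -0.42 ± 0.20 (edgeR adjusted p = 0.236). Pck1, a gluconeogenic enzyme, fell in conventional pregnancy by 1.00 ± 0.23 on the log2 scale (edgeR adjusted p = 0.00695) and had a value of -0.30 ± 0.23 in germ-free pregnancy (edgeR adjusted p = 0.449). The other 2 that rose in conventional pregnancy were Cdkn1a, a cell cycle inhibitor (2.18 ± 0.54, edgeR adjusted p = 0.011, and 0.91, edgeR adjusted p = 0.172, without conventional pregnant replicate 2), and the stress-induced Ddit4 (0.98 ± 0.21, edgeR adjusted p = 0.00347), which was named after its value was seen. Without that replicate the list stood at 3 higher and 1 lower.

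**Figure D3:**
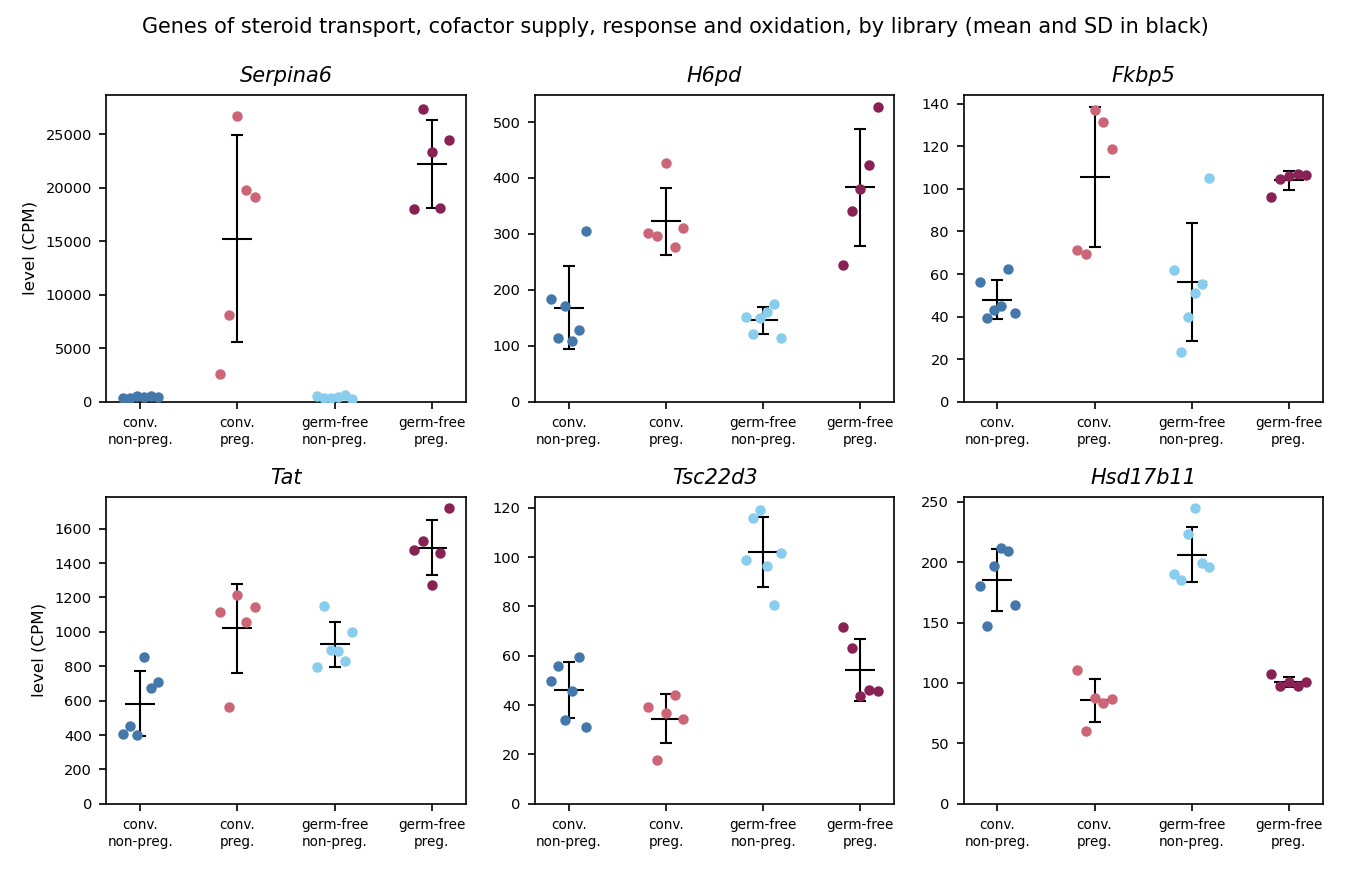
Levels in CPM (linear axes from 0) of the carrier Serpina6, the NADPH source H6pd, the receptor targets Fkbp5, Tat and Tsc22d3, and the 17-beta enzyme Hsd17b11, 1 point per mouse, with group mean and SD in black. Serpina6 stands at or above 2633 CPM in each pregnant library, Hsd17b11 is lower in both pregnant groups, and Tsc22d3 is highest in germ-free non-pregnant livers.

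Cyp17a1, a microsomal P450 that hydroxylates and cleaves progesterone and pregnenolone on the way to androgens, lies on the minus strand at chr19:46667165-46673172. It is expressed in rodent liver as well as in steroid-making glands. Germ-free non-pregnant livers stood at 48.5 to 112 CPM with a median of 63.8, and germ-free pregnant ones at 163, 166, 217, 232 and 301 CPM. The groups did not overlap. The log2 change of 1.62 ± 0.33 (95% interval 0.94 to 2.30; edgeR adjusted p = 0.00171; exact permutation p = 0.00216, again the smallest possible) was a fold of 3.08. It ranged from 1.47 to 1.80 when each library was left out, with an edgeR adjusted p of at most 0.00693.

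In conventional mice the Cyp17a1 libraries stood at 42.3 to 103 CPM with a median of 73.5 without pregnancy and at 33.0, 128, 131, 161 and 218 CPM with it. Here 4 of 5 pregnant livers were above all non-pregnant ones, and replicate 2 was below them all. The log2 change was 0.89 ± 0.33 (95% interval 0.21 to 1.56; edgeR adjusted p = 0.0935; exact permutation p = 0.171) with replicate 2. Without it the change was 1.13 ± 0.26 (edgeR adjusted p = 0.00749). Removing the lowest value of the higher group widens the difference by construction, so that fit is not a further test of a rise. The 2 pregnancy changes differed by 0.74 ± 0.46 (95% interval -0.22 to 1.69; edgeR adjusted p = 0.887).

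Across the 22 livers, log2 levels of Hsd11b1 and Cyp17a1 rose and fell together with a Pearson r of 0.82, and 0.79 without conventional pregnant replicate 2. This is a description: the libraries share their groups, and pregnancy separates most of them. After subtracting group means, Hsd11b1 and Cyp17a1 had r of 0.58, and 0.27 without conventional pregnant replicate 2. No pair that included Cyp17a1 exceeded 0.6 in size. Hsd11b1 had r of 0.80 with Hsd3b2 (0.69 without that replicate), 0.71 with Akr1c6 (0.72) and 0.60 with Hsd3b5 (0.57). Conventional pregnant replicates 1 and 2, which carried age label 70, were the lowest of their group for Hsd11b1, Hsd3b2, Akr1c6 and Hsd3b5. The values in brackets leave out only replicate 2, so replicate 1 still adds to them. This split cannot be told apart from age label.

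**Figure D4:**
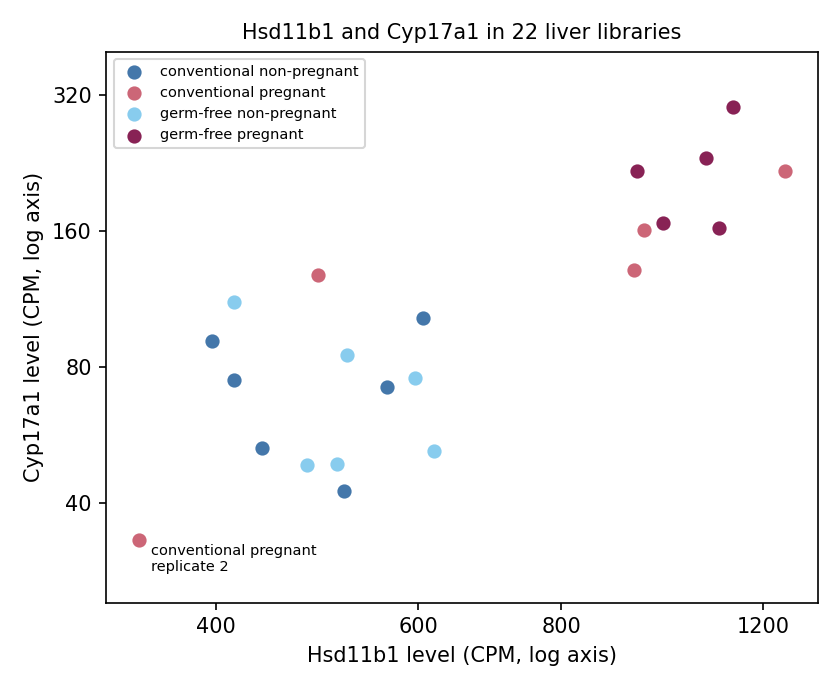
Hsd11b1 (horizontal) against Cyp17a1 (vertical), both in CPM on log axes, 1 point per liver, coloured by group. The 5 germ-free pregnant and 3 of the 5 conventional pregnant livers form the upper right, and conventional pregnant replicate 2, at 342 and 33.0 CPM, lies at the lower left below every non-pregnant liver.

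None of the electron donors of Cyp17a1 was called higher. Por, the reductase that feeds microsomal P450s, had log2 values of -0.58 ± 0.25 (edgeR adjusted p = 0.172) in conventional and -0.34 ± 0.25 (edgeR adjusted p = 0.44) in germ-free pregnancy, and Cyb5a, cytochrome b5, had -0.60 ± 0.24 and -0.43 ± 0.24 (edgeR adjusted p = 0.134 and 0.286). The mitochondrial ferredoxin Fdx1 fell in conventional pregnancy by 0.70 ± 0.21 on the log2 scale (edgeR adjusted p = 0.0386), a call lost in 7 of 11 fits that left out 1 library, including that without conventional pregnant replicate 2 (-0.61 ± 0.22, edgeR adjusted p = 0.112). The other steroidogenic P450s were close to absent: Cyp11a1 had at most 33 counts per group, Cyp21a1 23 and Cyp19a1 5. Star, which moves cholesterol into mitochondria, stood between 1.39 and 2.31 CPM as group means. Of the 7 tested genes of the list, 0 rose and 1 fell in conventional pregnancy, and 1 (Cyp17a1) rose and 0 fell in germ-free pregnancy, with medians of -0.58 and -0.34. Without conventional pregnant replicate 2 the first count became 1 higher and 0 lower.

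The Hsd3b enzymes catalyse oxidation or reduction at carbon 3 of the steroid skeleton, and 6 of them lie in a cluster on chromosome 3. Hsd3b5, at chr3:98618634-98630252 on the minus strand, is a ketosteroid reductase known for far higher expression in male than in female mouse liver. It had the widest intervals of the 9. Conventional non-pregnant livers ran from 2.91 to 12.0 CPM with a median of 5.01, and pregnant ones stood at 0.166, 0.394, 3.00, 10.8 and 14.3 CPM. Germ-free non-pregnant livers ran from 0.139 to 16.6 CPM with a median of 0.74, and pregnant ones at 0.335, 0.374, 1.22, 1.86 and 1.87 CPM. Values within a group thus spread widely in both the conventional pregnant and the germ-free non-pregnant livers, and the groups overlapped. The lowest conventional pregnant values were those of replicates 1 and 2.

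For Hsd3b5 the log2 change with pregnancy was -0.21 ± 0.95 (95% interval -2.17 to 1.74; edgeR adjusted p = 0.931) in conventional and -1.62 ± 1.05 (-3.78 to 0.54; edgeR adjusted p = 0.368) in germ-free mice. The latter rests on germ-free non-pregnant replicate 6, without which it was 0.23. Germ-free against conventional mice gave -0.90 ± 0.91 without pregnancy and -2.30 ± 1.08 with it (edgeR adjusted p = 0.999 and 0.459). The spread between mice leaves room for large changes in either direction. Hsd3b5 counts amounted to 113 over the 5 germ-free pregnant libraries, against 917 over the 6 conventional non-pregnant ones.

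Hsd3b2, at chr3:98709255-98724543 on the minus strand, is a member of the same cluster with dehydrogenase and isomerase activity. Non-pregnant libraries ran from 19.7 to 30.9 CPM (conventional) and from 18.3 to 30.04 CPM (germ-free). Pregnant conventional livers stood at 10.3, 16.1, 25.0, 30.2 and 43.3 CPM, and germ-free pregnant ones at 22.8, 30.5, 30.6, 31.3 and 42.8 CPM. Conventional pregnant values lay both below and above the non-pregnant range, and germ-free pregnant values overlapped it from above. The log2 changes were 0.00 ± 0.24 (95% interval -0.51 to 0.50; edgeR adjusted p = 0.996) and 0.39 ± 0.24 (-0.11 to 0.89; edgeR adjusted p = 0.352).

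Hsd3b3 was the most abundant of the cluster per kb of exon, at 15.8 to 19.4 CPM per kb as group means, against 6.53 to 8.55 for Hsd3b2 and 0.731 to 4.25 for Hsd3b5. Its log2 changes with pregnancy were 0.06 ± 0.19 and 0.18 ± 0.19 (edgeR adjusted p = 0.902 and 0.611). Hsd3b4 and Hsd3b6 were assigned at most 0.0533 CPM per kb in all groups. Every 31-base stretch of Hsd3b4 (100%) also occurs in the neighbouring gene model Gm10681, which shares 25.6% of those of Hsd3b5, and the coding sequence of Hsd3b4 is 95.2% identical to that of Hsd3b5, so the level of Hsd3b4 cannot be read on its own. Hsd3b1, the form known from adrenal gland and gonads, rose in conventional pregnancy by 4.82 ± 0.88 (edgeR adjusted p = 0.000883) from near 0. Non-pregnant libraries stood at 0 to 0.443 CPM and pregnant ones at 0.453, 1.00, 1.36, 1.91 and 10.4 CPM. The highest was replicate 2, and without it the change was 3.45 (edgeR adjusted p = 0.00662). In germ-free pregnancy Hsd3b1 had a value of 1.15 ± 0.80 (edgeR adjusted p = 0.408), with an interaction of -3.66 ± 1.19 (edgeR adjusted p = 0.863). Of 6 tested genes of the family, 1 rose and 0 fell in conventional pregnancy and 0 passed the test in germ-free pregnancy.

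**Figure D5:**
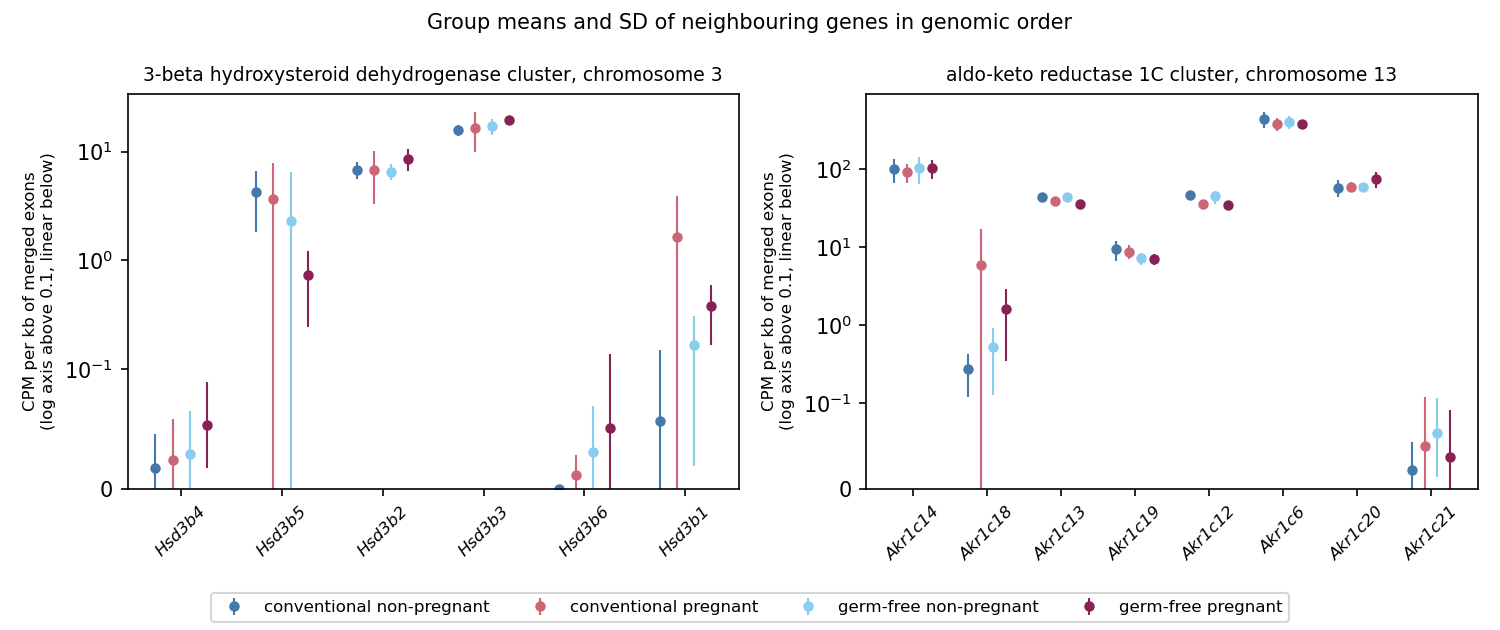
Group means with SD of the Hsd3b genes (left) and the Akr1c genes (right) in genomic order, in CPM per kb of merged exons, on an axis that is logarithmic above 0.1 and linear below it (SD bars that pass below 0 end at the axis). Hsd3b3 and Akr1c6 lead their clusters in each group, at up to 19.4 and 435 CPM per kb, and the means of the low genes Hsd3b1 and Akr1c18 are highest in conventional pregnant livers, which for Akr1c18 rests on replicate 2 (group median 1.22 CPM, against 1.63 CPM in germ-free pregnant livers).

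Hsd17b2, at chr8:117701904-117759027 on the plus strand, encodes the enzyme that oxidises oestradiol to oestrone and testosterone to androstenedione. Conventional non-pregnant libraries ran from 117 to 212 CPM with a median of 142, and the pregnant ones stood at 132, 142, 145, 176 and 252 CPM. Germ-free non-pregnant libraries ran from 75.0 to 151 CPM with a median of 94.5, and the pregnant ones at 118, 129, 134, 149 and 156 CPM. Pregnant and non-pregnant ranges overlapped in both, and most germ-free non-pregnant livers lay below the conventional ones. With pregnancy the log2 change was 0.13 ± 0.20 (95% interval -0.29 to 0.55; edgeR adjusted p = 0.784) and 0.37 ± 0.20 (-0.05 to 0.79; edgeR adjusted p = 0.277).

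Other genes named for 17-beta hydroxysteroid dehydrogenase activity fell. Hsd17b11, a lipid droplet enzyme, fell from 147 to 212 CPM (median 189) to 59.9, 83.6, 86.3, 87.2 and 111 CPM in conventional mice, or -1.11 ± 0.14 on the log2 scale (edgeR adjusted p = 7.45e-06). In germ-free mice it fell from 185 to 245 CPM (median 197) to 97.3, 97.6, 101.0, 101.0 and 107 CPM, or -1.03 ± 0.14 on the log2 scale (edgeR adjusted p = 1.64e-05). Neither comparison had overlapping groups. Its relative Hsd17b13, also found on lipid droplets, fell by 0.86 ± 0.20 and 1.33 ± 0.21 (edgeR adjusted p = 0.00803 and 9.81e-05). The mitochondrial Hsd17b10 fell in conventional pregnancy by 0.61 ± 0.15 (edgeR adjusted p = 0.0113) and had -0.25 ± 0.15 in germ-free pregnancy (edgeR adjusted p = 0.326).

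Hsd17b6, a relative of the retinol dehydrogenases that can oxidise androgens, missed the threshold at 0.73 ± 0.23 (edgeR adjusted p = 0.0507) in conventional pregnancy and passed it without conventional pregnant replicate 2 (0.93 ± 0.18, edgeR adjusted p = 0.00231). In germ-free pregnancy it had 0.59 ± 0.23 (edgeR adjusted p = 0.114). Of 11 tested genes of the family, 0 rose and 3 fell in conventional pregnancy (3.52% of all genes called lower), and 0 rose and 2 fell in germ-free pregnancy (3.6% called lower). The family medians were -0.02 and 0.17. The genes that fell are not known chiefly as oestrogen or androgen oxidases.

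Srd5a1 encodes steroid 5-alpha reductase type 1 and lies on the minus strand at chr13:69573449-69611442. Conventional non-pregnant livers ran from 25.2 to 65.7 CPM with a median of 34.6, and the pregnant ones stood at 15.9, 21.8, 22.5, 32.5 and 44.4 CPM. Germ-free non-pregnant livers ran from 23.9 to 48.4 CPM with a median of 33.5, and the pregnant ones at 32.2, 32.2, 33.6, 35.5 and 40.7 CPM. Of the conventional pregnant livers 3 lay below all non-pregnant ones, and replicate 2 was the lowest, whereas germ-free pregnant livers lay in the middle of the non-pregnant range. The log2 changes were -0.46 ± 0.24 (95% interval -0.95 to 0.03; edgeR adjusted p = 0.266) and 0.03 ± 0.24 (-0.46 to 0.52; edgeR adjusted p = 0.96). The difference between them was 0.49 ± 0.33 (edgeR adjusted p = 0.887). Among the 4 tested 5-alpha and 5-beta reductases, 0 passed the test in either comparison, and the best expressed, the bile acid and steroid 5-beta reductase Akr1d1, had values of -0.12 ± 0.22 and 0.39 ± 0.22.

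Akr1c6, at chr13:4434306-4457877 on the plus strand, is an aldo-keto reductase that can reduce androstenedione to testosterone. Per kb of exon it was the most abundant of the 9 in each group, whereas in CPM Hsd11b1 had the higher mean in both pregnant groups. Conventional non-pregnant livers ran from 679 to 1241 CPM with a median of 866, and the pregnant ones stood at 619, 632, 798, 878 and 962 CPM. Germ-free non-pregnant livers ran from 549 to 1031 CPM with a median of 831, and the pregnant ones at 692, 698, 737, 791 and 882 CPM. All 4 groups overlapped. The log2 changes with pregnancy were -0.18 ± 0.18 (95% interval -0.55 to 0.18; edgeR adjusted p = 0.61) and -0.10 ± 0.18 (-0.47 to 0.26; edgeR adjusted p = 0.778).

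Of its relatives on chromosome 13, Akr1c20 had the most similar coding sequence, 92.3% identical over 969 bases, and a group mean of 107 to 137 CPM with values of 0.05 ± 0.17 and 0.33 ± 0.16 (edgeR adjusted p = 0.905 and 0.222). Akr1c12 had -0.39 ± 0.13 (edgeR adjusted p = 0.0617) and -0.36 ± 0.13 (edgeR adjusted p = 0.0832). Akr1c18, which inactivates progesterone, was called higher in conventional pregnancy by 4.41 ± 0.98 (edgeR adjusted p = 0.00539). That call came from replicate 2, at 31.3 CPM against 0.456 to 1.36 CPM in the other 4 pregnant livers, and was lost without it (1.55, edgeR adjusted p = 0.219). Of the 7 tested, 1 rose in conventional pregnancy and 0 without that replicate, while 0 passed the test in germ-free pregnancy.

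Conjugating and deconjugating enzymes attach or remove sulfate and glucuronate to clear or release steroids. Gusb, the lysosomal beta-glucuronidase, rose in both. Its mean was 15.6 ± 3.02 CPM in non-pregnant and 36.5 ± 8.47 CPM in pregnant conventional livers, and 15.2 ± 1.44 CPM and 38.5 ± 6.51 CPM in germ-free ones, log2 changes of 1.23 ± 0.15 (edgeR adjusted p = 7.45e-06) and 1.34 ± 0.15 (edgeR adjusted p = 1.79e-06). Sult2a5, a hydroxysteroid sulfotransferase, fell by 2.51 ± 0.78 and 2.90 ± 0.81 (edgeR adjusted p = 0.0435 and 0.0211), with the calls lost in 8 and 2 of 11 fits that left out 1 library, the former also without conventional pregnant replicate 2 (-2.56 ± 0.85, edgeR adjusted p = 0.0754). Of 17 tested genes, 1 rose and 1 fell in conventional pregnancy, and 1 rose and 2 fell in germ-free pregnancy, the other being Ugt2b38 at under 1 CPM, named after its value was seen. These counts stand beside 5.49% and 7.15% of all genes called higher and 3.52% and 3.6% called lower, and without conventional pregnant replicate 2 the first became 1 higher and 0 lower. Their medians were -0.33 and -0.24.

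Hsd3b5 is also 1 of 12 genes listed as male-biased in mouse liver, where growth hormone pulses set sex differences. Of the 11 tested, 1 rose and 3 fell in conventional pregnancy, and 2 rose and 4 fell in germ-free pregnancy, beside 5.49% and 7.15% of all genes called higher and 3.52% and 3.6% called lower. The list medians were 0.04 and -1.62, beside 0.04 and -0.02 for all genes, so the list as a whole was not lower in conventional pregnancy. Of its called genes, only some that fell are named here. Among those that fell in both, Elovl3, a fatty acid elongase, changed by -3.59 ± 0.71 and -2.79 ± 0.75 (edgeR adjusted p = 0.00193 and 0.0167, the latter call lost in 2 of 11 such fits), and the urinary pheromone gene Mup20 by -2.51 ± 0.53 and -2.94 ± 0.54 (edgeR adjusted p = 0.00312 and 0.000651). The P450 gene Cyp2d9 fell by 1.94 ± 0.51 and 2.54 ± 0.52 (edgeR adjusted p = 0.0176 and 0.00192). Hsd3b5 itself passed neither test.

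Of 13 female-biased genes, 8 rose and 1 fell in each comparison, with medians of 2.11 and 3.02, and 10 rose in conventional pregnancy without replicate 2. The shares of all genes called higher were 5.49% and 7.15% (6.47% in either direction without that replicate). Among the genes that rose were the P450s Cyp3a41b, Cyp3a16 and Cyp3a44, close relatives among which reads may be divided uncertainly. Cyp3a41b had 0.19 to 13.5 CPM in conventional non-pregnant and 90.8 to 866 CPM in pregnant livers, 6.23 ± 0.93 on the log2 scale (edgeR adjusted p = 9.2e-05), and a change of 7.38 ± 0.98 in germ-free mice (edgeR adjusted p = 1.64e-05). Cyp3a16 rose by 4.43 ± 0.73 and 6.92 ± 0.82 (edgeR adjusted p = 0.00031 and 3.67e-06), and Cyp3a44 by 3.89 ± 0.55 and 4.85 ± 0.57 (edgeR adjusted p = 4.84e-05 and 3.38e-06). The gene that fell in both was Cyp2b13, by 3.64 ± 0.29 and 1.47 ± 0.26 (edgeR adjusted p = 1.6e-08 and 0.00051).

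Ranked per kb of merged exons in conventional non-pregnant livers, the 9 stood in the order Akr1c6 (435 ± 97.7 CPM per kb, SD, n = 6), Hsd11b1 (115 ± 20.2), Hsd17b2 (80.5 ± 19.7), Cyp17a1 (26.2 ± 8.16), Srd5a1 (13.0 ± 4.88), Nr3c1 (7.48 ± 1.27), Hsd3b2 (6.78 ± 1.17), Hsd3b5 (4.25 ± 2.44) and Esr1 (2.32 ± 0.38). The ranges over libraries overlapped between Hsd11b1 and Hsd17b2, between Cyp17a1 and Srd5a1, between Srd5a1 and Nr3c1, between Nr3c1 and Hsd3b2, between Hsd3b2 and Hsd3b5, and between Hsd3b5 and Esr1, so those neighbours are not separated beyond their spread. In germ-free pregnant livers Cyp17a1 (78.0 ± 20.5) stood above Hsd17b2 (71.3 ± 8.05) with overlapping ranges, and Hsd3b5 (0.731 ± 0.488) came last. With the length of the longest transcript instead, Esr1 (5.00 CPM per kb) passed Hsd3b5 in the conventional non-pregnant group, and Hsd17b2 (104) stayed above Cyp17a1 (89.9) in the germ-free pregnant group.

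The genes whose log2 levels were most like those of a member over the 22 libraries were ranked by Pearson's r, among genes with a mean of at least 5 CPM. Hsd11b1 was nearest to Tpm2 (r = 0.93), Amy1 (0.92) and Serpina1b (0.91), and Cyp17a1 to Tcn2 (0.89), Proz (0.88) and Sdc2 (0.87). These values include the shared difference between pregnant and non-pregnant groups. With group means subtracted, the nearest were Azgp1 for Hsd11b1 (0.92, and 0.88 without conventional pregnant replicate 2) and Tcn2 for Cyp17a1 (0.88 and 0.78). Nr3c1 had the closest companions of all 9 on that scale, Zhx1 at 0.95. Esr1 was nearest to Eci3 (0.80) and the sulfotransferase Sult2a1 (0.72), and Hsd3b5 to the urinary protein gene Mup3 (0.71). Hsd3b2 was nearest to Coq10a (0.82, and 0.72 without conventional pregnant replicate 2), Akr1c6 to Atg3 (0.88 and 0.86) and Srd5a1 to Wdr24 (0.84 and 0.77). Each r is the highest found among about 8616 genes, so it is high in part by that choice. By Spearman's rank correlation of levels, Tcn2 and Mup3 stayed nearest to Cyp17a1 and Hsd3b5. Hsd11b1, Hsd3b2, Akr1c6, Srd5a1 and Esr1 then had other nearest genes.

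Between germ-free and conventional mice 0 of the 9 genes passed the test. In non-pregnant livers the values whose unadjusted permutation p was under 0.05 were those of Hsd17b2 (-0.55 ± 0.19, 95% interval -0.95 to -0.14), Esr1 (-0.38 ± 0.16, -0.70 to -0.06) and Nr3c1 (-0.30 ± 0.15, -0.61 to 0.02), all lower in germ-free livers, with edgeR adjusted p of 0.508, 0.64 and 0.854. Their exact permutation p-values, each unadjusted, were 0.0325, 0.0498 and 0.0411. Permutation was run on the 9 alone. At an unadjusted edgeR p under 0.05, 2 of the 9 were found in this comparison, against 6.01% of all genes. Hsd11b1 and Cyp17a1 had 0.10 ± 0.22 and -0.05 ± 0.31 there (edgeR adjusted p = 0.999 for both). In pregnant livers Cyp17a1 had 0.69 ± 0.34 (95% interval -0.02 to 1.39; edgeR adjusted p = 0.486) and Hsd11b1 0.40 ± 0.24 (-0.10 to 0.90; edgeR adjusted p = 0.583), values that became 0.44 and 0.21 without conventional pregnant replicate 2. These comparisons also compare ages.

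Among the related genes, Tsc22d3 was higher in germ-free than in conventional non-pregnant livers, at 80.5 to 119 against 31.2 to 59.6 CPM without overlap, a log2 change of 1.15 ± 0.20 (edgeR adjusted p = 0.00973). Pck1 was higher in germ-free than in conventional pregnant livers by 1.23 ± 0.24 (edgeR adjusted p = 0.0315), a call lost in 8 of 10 fits that left out 1 library, including that without conventional pregnant replicate 2 (1.13, edgeR adjusted p = 0.0805). Cyp2b13 was also higher there, at 73.8 to 80.2 CPM in germ-free against 5.91 to 20.4 CPM in conventional pregnant livers, by 2.43 ± 0.28 on the log2 scale (edgeR adjusted p = 0.000188), and kept its call in all 10 such fits (2.23, edgeR adjusted p = 0.000147, without that replicate). The test of whether the pregnancy change differed between microbiota states called 0 of 15928 genes in edgeR (0% of the background) and 7 in DESeq2 (0.0442%), with 903 genes (5.67%) at an unadjusted edgeR p under 0.05, of which 0 were among the 9. Its smallest adjusted p among the related genes was that of Cyp2b13, with an interaction of 2.16 (edgeR adjusted p = 0.0717), which passed the threshold without conventional pregnant replicate 2 (1.97 ± 0.32, edgeR adjusted p = 0.0415) but missed it in 19 of 22 fits that left out 1 library.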

How the data were processed

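Liver RNA from 22 mice was sequenced after library preparation with a kit that does not keep strand. The deposited table holds estimated counts per gene (expected counts), which per the submitters' processing notes came from Salmon 0.11.3 with GRCm38.p6. These notes also name edgeR 3.24.3, and the annotation release is not given in the sources used here. Of the table's identifiers 99.93% matched GENCODE M21 after dropping versions. Counts were rounded, which changed 0.0083% of them. Genes were kept by filterByExpr (count minimum 10, total minimum 15), scaled by TMM and fitted with edgeR 4.0.16 quasi-likelihood tests over all 22 libraries (limma 3.58.1, R 4.3.3), with 5 comparisons and Benjamini-Hochberg adjustment over 15928 genes at 0.05. Standard errors are the log2 change divided by the square root of F. Single log2 values use a prior count of 2. Members, lists and tests were chosen with earlier results of these data known.

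All 9 members were named, and from each list up to 3 called genes per comparison by size of change with at least 1 CPM in the higher group, with near relatives of members named whether called or not. Alternatives were DESeq2 1.42.0, RLE scaling, no filter on low counts, only the groups compared, a replicate block, an age covariate, exact permutation, no mitochondrially encoded genes and each library left out. The list counts without conventional pregnant replicate 2 were added after seeing the data. Libraries held 18064491 to 30036912 counts. The labels describe separate mice. The fit was also run on simulated counts, and no outcome of that run is given here.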

Additional observations from a re-analysis of the deposited data

Results flagged for a closer look

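Among 36 sets of values (9 genes in 4 groups), 3 held a library whose gap to its nearest neighbour, as a share of the group's range, exceeded Dixon's 95% critical value. Chance gives about 1 in 20. Esr1 stood at 49.6 CPM in conventional pregnant replicate 1, with the next library at 37.2 CPM. Srd5a1 stood at 65.7 CPM in conventional non-pregnant replicate 6, with the next at 35.5 CPM. Hsd3b5 stood at 16.6 CPM in germ-free non-pregnant replicate 6, with the next at 3.05 CPM, and this library sets the sign of its germ-free pregnancy change.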

How the results depend on the processing

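Hsd11b1 and Cyp17a1 in germ-free pregnancy stayed called under every alternative run. In conventional pregnancy the members called were 1 under DESeq2, with 12.2% of all genes called. They were 0 to 2 when each library was left out, with 6.47% of all genes called without conventional pregnant replicate 2. With only the groups compared fitted, the genes called were 890. Germ-free status in non-pregnant mice gave 117 genes under DESeq2, 10 to 29 with a library left out, and 3 members by unadjusted exact permutation. In pregnant mice it gave 35 genes with no filter, 5 with only the groups compared, 108 under DESeq2 and 5 to 28 with a library left out. The interaction gave 2 genes with no filter, 7 under DESeq2 and 0 to 2 with a library left out. The causes were not tested.

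Replicate numbers do not pair the mice (same-number correlations -0.26 to 0.31). With a replicate block the interaction called 1 gene, and germ-free pregnancy values turned to 0.054 for Nr3c1 and 0.37 for Hsd3b5, whose interaction became 0.77. With no filter, Srd5a1 in germ-free pregnancy was -0.013.

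Signs of small changes turned when a library was left out. In conventional pregnancy the log2 change ran from -0.059 to 0.24 for Hsd17b2, -0.89 to 0.10 for Hsd3b5 and -0.30 to 0.19 for Hsd3b2. In germ-free pregnancy it ran from -0.067 to 0.093 for Nr3c1, -0.055 to 0.15 for Srd5a1 and -1.88 to 0.23 for Hsd3b5. For germ-free status without pregnancy it ran from -0.27 to 0.087 for Srd5a1, -0.19 to 0.0078 for Akr1c6, -0.13 to 0.013 for Hsd3b2 and -0.23 to 0.074 for Cyp17a1, and with pregnancy from -0.10 to 0.056 for Akr1c6. The interaction ran from -0.041 to 0.17 for Akr1c6 and -1.72 to 0.45 for Hsd3b5. Hsd3b5 had 113 counts over the germ-free pregnant libraries.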
